A study of Homo sapiens with 28 samples.

Results

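Darinaparsin (DAR) is an organic arsenical in which dimethylated arsenic is joined to glutathione. The results below describe the transcripts of 4 human myeloma cell lines after 6 h in DAR, set against the untreated array of the same line that carries control number 1. The labels define the members: the 4 arrays named for 6 h of DAR and the 4 first controls, 8 of the 28 arrays in the series. The lines were U266, MM.1s, KMS11 and 8226/S, established cultures of malignant plasma cells grown in RPMI-1640 medium with serum. DAR was given at 4 µM to U266, at 3 µM to MM.1s and KMS11, and at 2 µM to 8226/S, so line and dose cannot be told apart. The other arrays hold DAR for 24 h, arsenic trioxide (ATO, an inorganic arsenical, 2 µM in each line) for 6, 24 and 48 h, and a second untreated control per line. Each line has 1 array per treatment and time. Controls were taken at 0 h, so an effect of DAR and an effect of 6 h in culture cannot be told apart. Total RNA was read on Affymetrix HG-U133 Plus 2.0 arrays, and values are the deposited linear signals. Where 4 values are given together, they stand in the order U266, MM.1s, KMS11 and 8226/S.

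Trivalent arsenic binds pairs of cysteine thiols and so disturbs protein folding and the redox balance of the cell. Several programmes are known to follow. Heat shock factor 1 switches on chaperones, which bind unfolded protein. NRF2 switches on glutathione and thioredoxin genes once its inhibitor KEAP1 is modified, ATF4 responds to arrested translation, and stress kinases act through JUN and its AP-1 partners. Free metal is also sensed by MTF1, which drives the metallothioneins. Myeloma cells make large amounts of antibody and depend on the plasma cell regulator IRF4.

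The arrays of DAR and control 1 had a trimmed mean signal near 500, and their median signal ran from 65.5 to 88.4 in control 1 and from 76.3 to 78.0 in DAR at 6 h, except for 8226/S, where it was 108.7. The ratio of 3′ to 5′ probe sets of ACTB, a measure of RNA and labelling quality, was lower after DAR in each line, at 1.52, 1.40, 1.29 and 1.32 against 1.90, 1.74, 1.71 and 1.37; that of GAPDH stayed between 0.948 and 1.08 in both groups. The part of signal distribution and RNA quality in the results was not tested. Each of the 20 treated arrays was closer to the control of its own array set than to the other control of its line, which is why control 1 is the baseline of DAR and control 2 that of ATO. The labels name no array sets; they were seen in the values. Of the plasma cell markers, SDC1 (syndecan-1) had a signal of 4321 to 17961 in control 1 and 4602 to 18638 after DAR. MZB1 ran from 536 to 16499 in control 1 and from 474 to 14441 after DAR. CD38 ran from 9.3 to 1551 and from 9.3 to 2852.5, so it was not bright in every line. The 25 tested genes of the plasma cell list summed to 113957 to 217412 in control 1 and to 106901 to 202480 after DAR. Of 18 tested markers of other cell types 1 passed the test, CD34, and their summed signal was 14854 to 24342 in control 1 and 16818 to 35033 after DAR.

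Many transcripts differed between the arrays of 6 h of DAR and control 1. Of 15438 genes tested, 954 were called higher (6.18%) and 873 lower (5.65%), a call being an adjusted p under 0.05 in limma with the same sign in all 4 lines; another 208 genes passed on p but differed in sign between lines. The rises were larger than the falls: 336 genes rose and 79 fell by over 1 on the log2 scale, and 42 rose and 0 fell by over 2. All log2 changes are of the signal plus 30, which understates the change of dim genes. Each count of called list members after 6 h of DAR is to be set against 6.18% called higher and 5.65% called lower over all genes. The 4 control signals and the 4 DAR signals did not overlap for 256 genes that were higher after DAR (1.66%) and 215 that were lower (1.39%), and 357 of these 471 genes were called. As deposited, 52.2% of calls were higher; with each array centred on its median the share was 39%, with 614 higher and 960 lower. Leaving out MM.1s gave 622 higher and 483 lower, and leaving out KMS11 gave 589 and 501. Standard errors (SE) are pooled over all treatments, and the SD given beside some of them is over the 4 lines. Nothing in the labels says how the arrays of a line relate as cultures. The p-values rest on a spread between lines that is pooled over all treatments and moderated across genes. They do not measure the SD over lines of the change after DAR. For GBP1 that SD was 1.92 at an SE of 0.508, and for ZFAND2A it was 0.044 at an SE of 0.148.

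**Figure D1:**
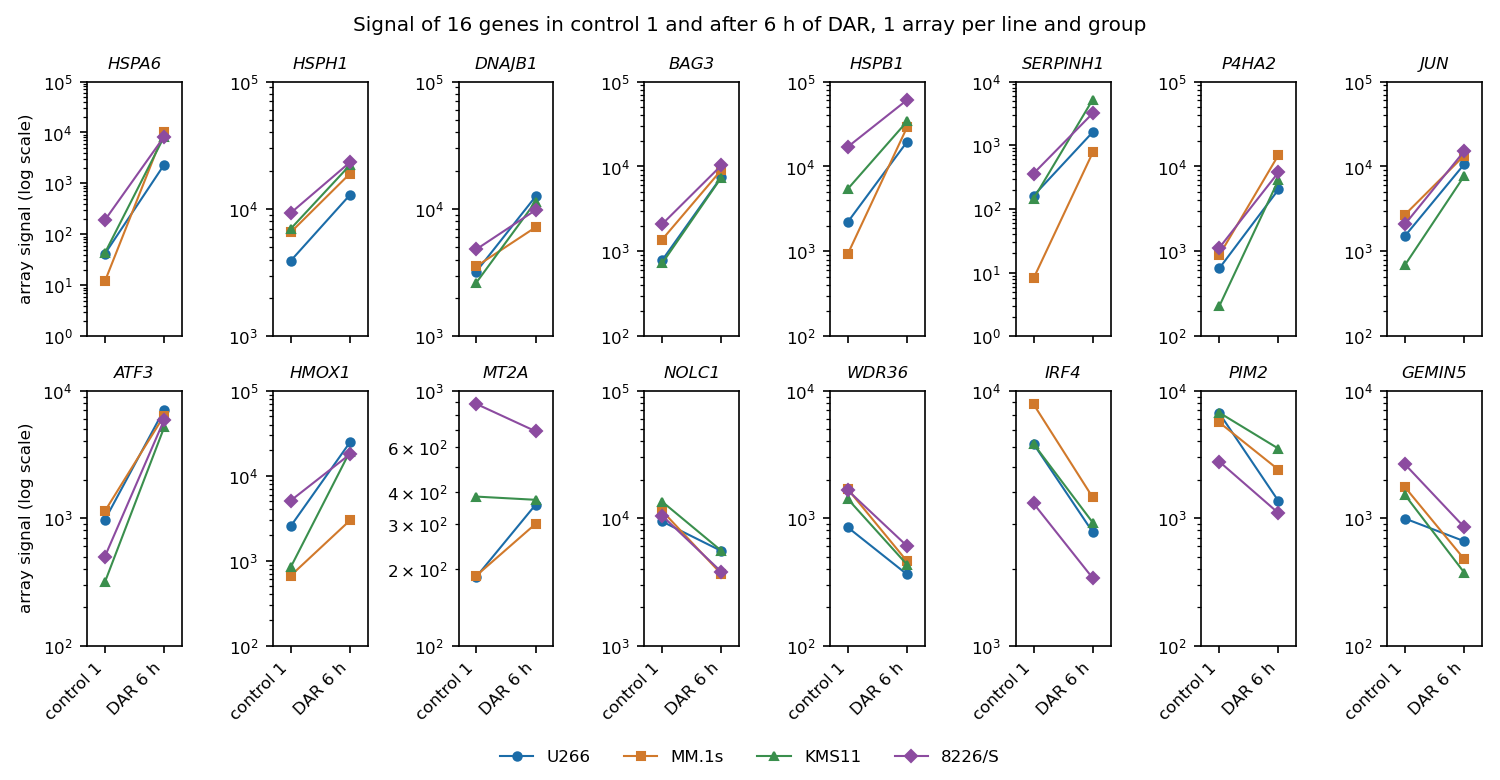
Array signal (log scale) of 16 genes in control 1 and after 6 h of DAR, with 1 point per line joined across the 2 arrays of that line. HSPA6 goes from 12 to 191 in control 1 to between 2335 and 10412 after DAR, whereas MT2A stays between 186 and 888 and IRF4 lies lower after DAR in each line.

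Cytosolic chaperones of the HSP70 class and their J-domain partners rose, HSPA6 and HSPA1L being among the 15 largest rises. HSP70 proteins hold and refold client proteins, HSP110 proteins release their nucleotide, and J-domain proteins deliver the clients. HSPA6, a strictly stress-induced HSP70, had a signal of 41.6, 12, 43.2 and 191 in control 1 and of 2335, 10412, 8309 and 8304 after DAR. The lowest treated array was thus above the highest control, and U266 was the lowest of the 4 after treatment. The mean rise was 6.27 ± 0.565 (SE; SD 1.38, n = 4 lines), or 77.1-fold, with an adjusted p of 2.32e-07, and it was the largest rise of any gene called. A near-identical pseudogene, HSPA7, exists, and the probe set may read both.

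HSPH1, the main HSP110, is abundant in untreated cells: its signal was 3909, 6543, 6969.5 and 9283 before and 12865, 18908, 22057 and 23213 after DAR. All treated arrays were above all controls, and the lines were close to each other in their change, 1.55 ± 0.14 (SD 0.17; adjusted p = 1.37e-07). The related HSPA4 rose by 1.09 ± 0.13, with probe sets from -0.63 to 1.405, and HSPA4L by 1.89 ± 0.19. HSPA1L signals of 256, 20.3, 83.3 and 112 became 1470.5, 601, 938 and 515, without overlap, a rise of 2.77 ± 0.40 (adjusted p = 6.56e-05). In all, 5 of 10 tested HSP70 and HSP110 genes were called higher and 0 lower, against 6.18% and 5.65% of all genes, and the median change of the list was 0.69 against 0.02 for all genes. HSPA5, the HSP70 of the endoplasmic reticulum (ER), was not among them, at -0.45 ± 0.15 (adjusted p = 0.0523), and neither was mitochondrial HSPA9, at -0.08. The inducible cytosolic genes HSPA1A and HSPA1B and the constitutive HSPA8 were not analysed here.

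Among the J-domain co-chaperones 7 of 14 were called higher (50%) and 0 lower, against 6.18% and 5.65% of all genes. When either KMS11 or 8226/S was left out 4 were called. DNAJB1, the partner of HSP70 in solubilising aggregates, went from 3227, 3546, 2640.3 and 4821 to 12522, 7181, 11390.4 and 9795. Each treated array exceeded each control, and the change was about 1 log2 unit larger in U266 and KMS11 (1.95 and 2.10) than in MM.1s and 8226/S (1.01 and 1.02). The mean was 1.52 ± 0.19 (adjusted p = 8.54e-06). DNAJB2 rose by 2.23 ± 0.27, DNAJB6 by 1.39 ± 0.21 and DNAJA1 by 0.88 ± 0.12.

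BAG3, a co-chaperone that hands HSP70 clients to autophagy, had signals of 784, 1374, 722 and 2087 in control 1 and 7529, 9085, 7408 and 10284 after DAR. The treated arrays lay within a narrow range, all above the controls. The rise was 2.88 ± 0.23 (SD 0.48), 7.34-fold, at an adjusted p of 5.84e-08. BAG3 belongs to a list of HSP90 proteins, chaperonins and partners, of which 11 of 23 were called higher (47.8%) and 2 lower (8.7%). CHORDC1 rose by 1.25 ± 0.135, and the scaffold STIP1, which links HSP70 to HSP90, and the immunophilin FKBP4 rose by 1.02 ± 0.165 and 1.03 ± 0.17. The HSP90 genes themselves moved little, HSP90AA1 by 0.405 ± 0.12 and HSP90AB1 by 0.385 ± 0.08, from high control signals (23319 to 32796 for HSP90AA1). The 2 called lower were FKBP5, an HSP90 partner that is also a glucocorticoid target (-1.13 ± 0.145, adjusted p = 1.46e-05), and BAG5 (-0.52 ± 0.12).

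HSPB1, a small heat shock protein that keeps unfolding proteins soluble, went from 2217, 931, 5436 and 17009 to 19505, 28937, 33856 and 60642. Its control level differed widely between lines, MM.1s being lowest and 8226/S highest, and the change was largest in MM.1s (4.91) and smallest in 8226/S (1.83). The mean was 3.12 ± 0.37 (SD 1.305; adjusted p = 6.59e-06). HSPB1 was the only called member of 6 tested small heat shock proteins. HSPB8 and CRYAB had changes of 2.24 and 2.54 in 8226/S but of -0.44 and -1.37 in U266, and were not called. Of 7 tested subunits of the chaperonin TRiC, 1 was called, CCT4 at 0.34 ± 0.07, a call that was lost with each array centred on its median. HSF1, whose protein is activated without new transcription, was at -0.16 ± 0.15 (adjusted p = 0.587).

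The heat shock element is an array of GAA and TTC units in alternation, each separated from the next by 2 bases, so that neighbouring units read GAANNTTC or TTCNNGAA. The 250 bases before the start were searched on both strands, in promoters from RefSeq (GRCh38.p14), for 3 such units in a row; 12273 of the tested genes had a promoter in the table. The element was present in 42 of these (0.34%), in 6 of 781 genes called higher (0.77%), in 2 of 748 called lower (0.27%), and in 3 of 21 called members of the heat shock lists (14.3%) against 0 of 22 uncalled members. It occurred in 0.44% of all 27305 promoters. The 4 promoters below are those with a match among the genes called higher that were taken for naming or are in the heat shock lists. HSPH1, DNAJB1, BAG3 and HSPB1 were not among them. Capitals mark the matched units, and each line runs 5′ to 3′ on the gene's strand.
HSPA6: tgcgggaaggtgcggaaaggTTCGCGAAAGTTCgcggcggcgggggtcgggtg
SERPINH1: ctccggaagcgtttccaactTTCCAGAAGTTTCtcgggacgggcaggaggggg
DNAJB6: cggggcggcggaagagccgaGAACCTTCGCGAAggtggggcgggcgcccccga
CHORDC1: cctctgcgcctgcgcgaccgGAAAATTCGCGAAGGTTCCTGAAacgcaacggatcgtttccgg
The HSPA6 stretch lies at chr1:161524446-161524498 on the plus strand, its match beginning 74 bases before the start. SERPINH1 is at chr11:75562157-75562209 (plus strand, 76 bases before) and DNAJB6 at chr7:157336853-157336905 (plus strand, 131 bases before). In CHORDC1, at chr11:90223067-90223129 on the minus strand, 3 overlapping matches begin 60 bases before the start. A match describes the letters only.

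A second group that stood out contained genes of collagen folding. SERPINH1 is the collagen chaperone HSP47 of the ER, and P4HA and PLOD enzymes hydroxylate proline and lysine in procollagen; fibroblasts, not plasma cells, are the main source of collagen. SERPINH1 signals of 161, 8.1, 144 and 359 rose to 1608, 769.5, 5210.5 and 3175. No treated array overlapped a control, although MM.1s began and ended lowest. The change was 3.86 ± 0.42 (SD 0.94), 14.6-fold, with an adjusted p of 2.64e-06. P4HA2 went from 631, 899.7, 226 and 1098 to 5357, 13666, 6941 and 8548, again without overlap, by 3.65 ± 0.27, 12.6-fold (adjusted p = 2.14e-08). KMS11 had the lowest control and the largest change, 4.77.

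P4HA1 rose by 1.62 ± 0.405 (adjusted p = 0.0087), PLOD1 by 1.43 ± 0.23 and PLOD3 by 0.58 ± 0.16. In all 5 of 13 tested members were called higher (38.5%) and 0 lower, while the median of the list was 0.11. Without MM.1s or without KMS11 3 were called. With both controls pooled as the baseline 2 were called, and the calls of P4HA1 and PLOD1 were lost.

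Immediate early genes, which encode short-lived transcription factors and their regulators, made up the third group. JUN, the core subunit of AP-1, had signals of 1519, 2708, 691 and 2088 before and 10626, 13454, 7724 and 15133 after DAR. Each treated array was above each control, and the change was similar across lines at 2.84 ± 0.31 (SD 0.46; adjusted p = 2.69e-06). ATF3, a stress-induced partner of JUN, went from 969.7, 1135, 315 and 499.5 to 7109, 6379, 5156 and 5908. The treated signals were nearly equal although the controls were not, and the rise was 3.17 ± 0.44, 9.02-fold (adjusted p = 3.45e-05).

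MAFF, a small MAF protein that also pairs with NRF2, rose by 2.39 ± 0.325 in signals from 798, 1119, 232 and 515 to 4288, 5983, 1049 and 3593. The groups overlapped, since treated KMS11 was below untreated MM.1s, but the lines moved by similar amounts (2.04 to 2.73). Of 24 tested members 12 were called higher (50%) and 0 lower, against 6.18% and 5.65% of all genes, with a list median of 1.01. Without 8226/S 8 were called. JUND rose by 1.165 ± 0.165, JUNB by 1.11 ± 0.30, FOSL2 by 1.26 ± 0.37, IER5 by 1.475 ± 0.18 and SRF, the factor that drives many genes of this class, by 1.24 ± 0.29. FOS itself was not called: its signals of 15.3, 11.9, 32.2 and 142 became 135, 162, 50 and 259, a change of 1.29 ± 0.47 (adjusted p = 0.0741). EGR1 ranged from -0.29 in U266 to 3.59 in 8226/S and was not called. With both controls pooled as the baseline 5 members of the list were called.

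Zinc finger factors of the Kruppel-like family and phosphatases that switch off MAP kinases accompanied them. KLF6 rose by 2.10 ± 0.29 (adjusted p = 3.45e-05). Of 13 tested Kruppel-like genes 5 were called higher (38.5%) and 0 lower, against 6.18% and 5.65% of all genes. DUSP16, DUSP10 and DUSP1, which dephosphorylate JNK, p38 and ERK, rose by 1.87, 1.60 and 1.45, and were the 3 called members of 10 (30%). DUSP1 was not called when all probe sets of a gene were averaged or both controls were pooled. CREB5, which can pair with JUN, rose from 151, 88.0, 38.4 and 90.2 to 1905, 1439.5, 469 and 420.4. These groups were apart, and the change was 2.96 ± 0.33 (adjusted p = 2.94e-06).

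The AP-1 motif, TGACTCA or TGAGTCA, was found in 2.74% of promoters of tested genes, in 32 genes called higher (4.10%) and in 11 called lower (1.47%), and in 4.16% of all promoters. BAG3 holds one 19 bases before its start, at chr10:119651341-119651379 on the plus strand. HSPA6, with 2 matches, and SLC3A2 also hold the motif and are not printed. The cyclic AMP element TGACGTCA, to which ATF and CREB factors bind, was present in 2.63% of tested promoters, in 24 genes called higher (3.07%) and in 30 called lower (4.01%), against 1.77% of all. MAFF and PPP1R15A carry it at chr22:38201920-38201967 and chr19:48872343-48872390, both on the plus strand. They are shown as the largest rises among the named genes called higher with this element. BACH2, DUSP1 and ELOVL5 carry it too. Capitals mark the match.
BAG3: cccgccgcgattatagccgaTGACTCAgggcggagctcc
MAFF: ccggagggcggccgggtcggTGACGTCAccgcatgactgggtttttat
PPP1R15A: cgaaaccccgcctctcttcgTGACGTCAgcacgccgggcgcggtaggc
The antioxidant element TGACNNNGC occurred in 12.1% of tested promoters, 12.4% of genes called higher and 13.4% of those called lower. The metal element, TGCACNC or TGCGCNC, occurred in 31.6%, 32.01% and 38.5%.

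NRF2 targets responded in part. HMOX1, which degrades haem, had signals of 2535, 664, 832 and 5078 in control 1 and 24626, 2969, 19202 and 17856 after DAR. The groups overlapped because treated MM.1s stayed below untreated 8226/S. The rise was 2.92 ± 0.415 (SD 1.22), 7.55-fold (adjusted p = 5.25e-05). SQSTM1, an autophagy receptor that binds KEAP1, rose by 1.58 ± 0.19. The cystine carrier SLC7A11 rose by 1.815 ± 0.34, GCLM, a subunit of the first enzyme of glutathione synthesis, by 1.185 ± 0.22, and SRXN1 by 0.72 ± 0.23. In all 7 of 27 targets were called higher (25.9%) and 0 lower, against 6.18% and 5.65% of all genes. TXNRD1, thioredoxin reductase, was at 0.23 ± 0.18 (adjusted p = 0.457), and NQO1 at 0.585 ± 0.22 (adjusted p = 0.0785).

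Of 9 tested partners and repressors of NRF2 5 were called higher, and the median change of this list was 0.64 against 0.25 for the targets. BACH1 (1.17 ± 0.18) and BACH2 (1.715 ± 0.28) are repressors that bind the same element, and MAFG (0.91 ± 0.14) is a small MAF partner. NFE2L2, which encodes NRF2, was at 0.33 ± 0.12 (adjusted p = 0.0731), and KEAP1 at 0.08. Genes of arsenic and glutathione handling had a median of 0.06, with 3 of 23 called higher (13%, against 6.18% of all genes). Each of the 3 is also in the NRF2 or ATF4 list.

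Metallothioneins, the cysteine-rich proteins that buffer metals, showed no common rise. MT2A, usually the most abundant, had signals of 186, 188, 384 and 888 before and 357, 300.4, 373 and 693 after DAR. U266 and MM.1s were higher and KMS11 and 8226/S level or lower, and the mean change of 0.26 ± 0.38 was not called (adjusted p = 0.727; 95% interval -0.51 to 1.04). MT1X was at -0.29 ± 0.60 and MT1H at -0.01 ± 0.50. MT1E was the 1 member called higher, at 1.27 ± 0.33, and that call was lost without 8226/S; the zinc importer SLC39A10 was called lower, at -0.72 ± 0.21, but not without MM.1s, KMS11 or 8226/S. Metallothionein genes are alike in sequence, so probe sets may share signal.

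The ATF4 response to arrested translation, the longest list tested, had 20 of 41 genes called higher (48.8%) and 0 lower, with a median of 0.70. Over all genes 6.18% were called higher and 5.65% lower. The partners and repressors of NRF2 had a larger share called higher, 55.6%. CEBPG, a dimer partner of ATF4, rose from 1607, 1454, 1696 and 831 to 4969, 3092, 3130.0 and 2750.1. All treated arrays were above all controls, and the change was 1.31 ± 0.15 (adjusted p = 3.33e-06). A second CEBPG probe set gave 0.01. PPP1R15A, which restores translation by directing dephosphorylation of eIF2 alpha, rose by 2.105 ± 0.31, and EIF2AK3, the kinase PERK that acts the other way, by 1.16 ± 0.21. Amino acid transport and synthesis genes were among the members: SLC3A2 rose by 0.88 ± 0.13, cystathionase CTH by 1.62 ± 0.29, ASNS by 0.88 ± 0.26 and PHGDH by 0.97. INHBE rose by 1.93 ± 0.34 and SESN2 by 1.36 ± 0.29.

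DDIT3, the death-associated factor CHOP, went from 575, 412, 297 and 213 to 2656, 360.0, 583 and 912. It was higher in 3 lines and lower in MM.1s, and was not called (1.21 ± 0.29, adjusted p = 0.00679); without MM.1s it was called, at 1.67. TRIB3 was at 0.70 ± 0.24 (adjusted p = 0.0508) and ATF4 at 0.31 ± 0.16 (adjusted p = 0.241). Of 25 ER chaperones, the targets of ATF6 and XBP1, 3 were called lower (12%) and 1 higher (4%), against 5.65% and 6.18% of all genes. Those lower were MANF (-0.65 ± 0.18), SDF2L1 (-0.655 ± 0.21) and DNAJC10 (-0.43 ± 0.10). The 1 higher was the oxidase ERO1A (0.55 ± 0.18), with probe sets down to -0.33. The ERO1A call was lost without U266, MM.1s or KMS11, and with each array centred on its median. Over the omission of each line in turn the number called lower was 1 to 4, being 1 without MM.1s or KMS11; with centred arrays it was 5. The list median was -0.16.

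No proteasome subunit was called by limma, 0 of 31 in either direction, with 1 higher and 0 lower at an unadjusted p under 0.05 and a median of 0.02. Of the ubiquitin and autophagy list 10 of 29 were called higher (34.5%) and 2 lower (6.9%), against 6.18% and 5.65% of all genes. Without KMS11 6 were higher. ZFAND2A, an arsenite-inducible regulator of the proteasome, rose from 942, 1498, 2041 and 1441 to 2931, 4477, 5944 and 4144. The groups did not overlap, and the change was nearly equal across lines, at 1.55 ± 0.15 with an SD over lines of 0.04 (adjusted p = 4.69e-07). The autophagy genes VMP1 and MAP1LC3B rose by 2.34 ± 0.34 and 1.09 ± 0.16, while the ubiquilins UBQLN2 and UBQLN1 fell by 0.74 and 0.43.

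**Figure D2:**
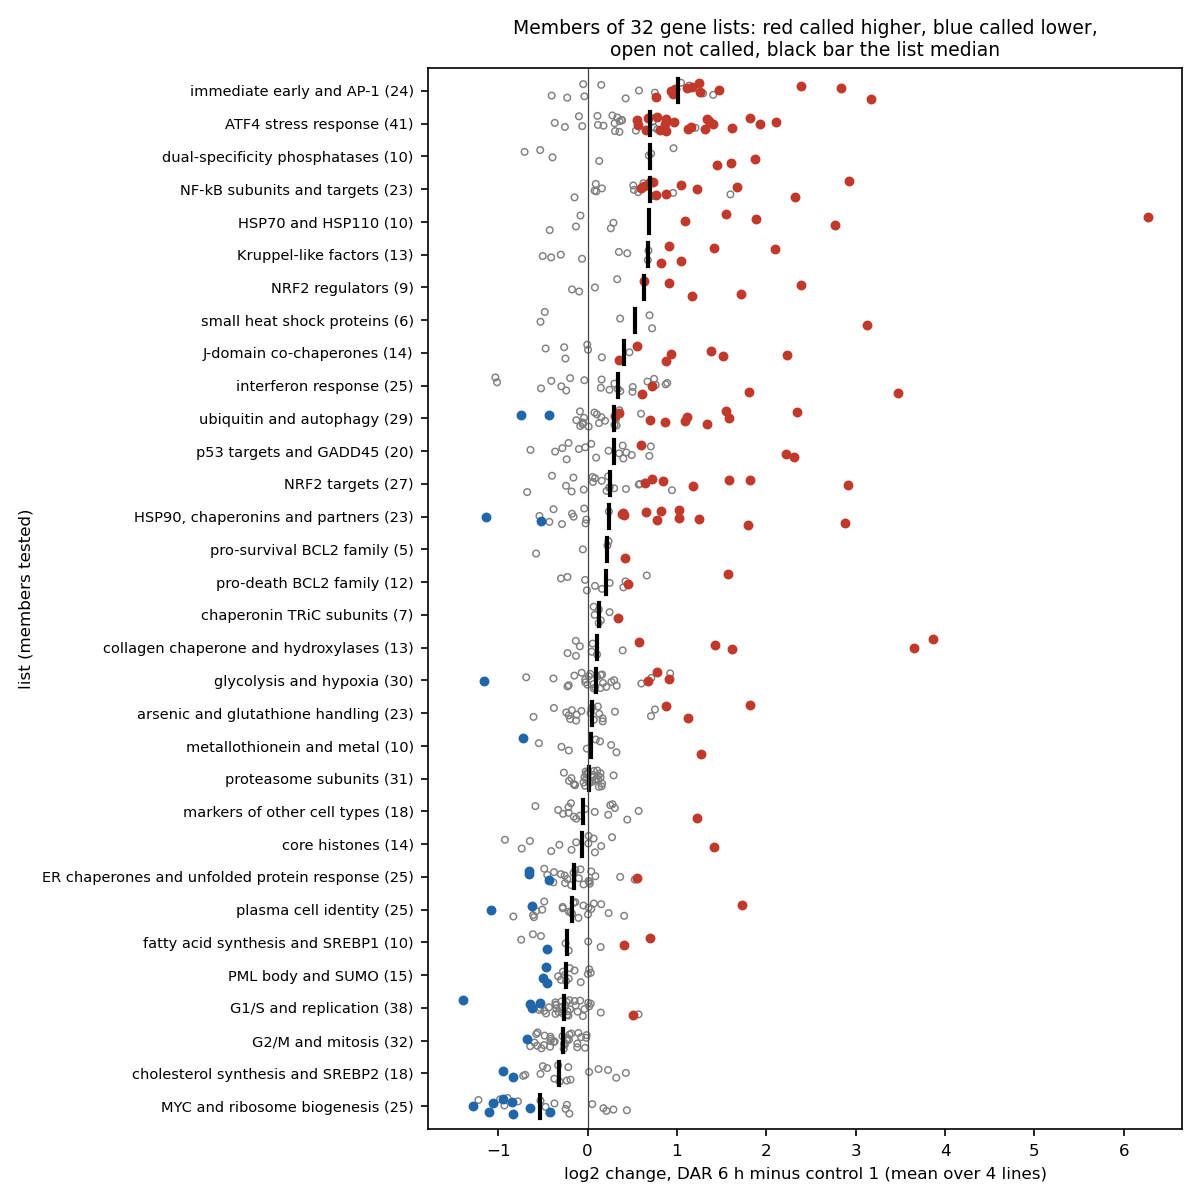
Mean log2 change after 6 h of DAR of each tested member of 32 gene lists, 1 point per gene, red where called higher, blue where called lower and open where not called, with a black bar at the list's median. List medians run from 1.01 for immediate early genes to -0.53 for MYC and ribosome biogenesis; HSPA6 lies alone at 6.27.

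NF-kB target genes rose as well. TRAF1, an adaptor of TNF receptors and itself a target, had signals of 61.1, 95.8, 69.4 and 15.4 in control 1 and 1098, 418, 367 and 819 after DAR. The groups were apart, with U266 and 8226/S highest after treatment, and the change was 2.92 ± 0.345 (adjusted p = 6.03e-06). NFKBIA, the inhibitor of NF-kB, rose by 1.22 ± 0.195, RELB by 1.05 ± 0.21, NFKBIZ by 1.67 ± 0.40 and the deubiquitinase TNFAIP3 by 0.73 ± 0.15. In all 11 of 23 were called higher (47.8%) and 0 lower, against 6.18% and 5.65% of all genes, with a median of 0.70. Under either rescaling of the arrays 8 were called. CCL4, a chemokine with a near-identical copy in the genome, went from 1335, 850.5, 10.0 and 14.3 to 12565, 9510.4, 207 and 16.5. It was called at 2.32 ± 0.44, yet its change in 8226/S was 0.07.

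Interferon-inducible genes were called higher in 4 of 25 cases (16%) and lower in 0, against 6.18% and 5.65% of all genes. GBP1, a guanylate-binding protein, went from 22.2, 1958, 19.1 and 99.7 to 83.8, 12879.8, 1584 and 4266. The groups overlapped and U266 moved least (1.12 against 2.70 to 5.05); the mean was 3.48 ± 0.51 (SD 1.92; adjusted p = 6.56e-05). GBP2, IRF1 and BST2 rose by 1.81, 0.73 and 0.61. Other members did not follow, such as XAF1 at -1.03 and MX1 at -1.01, neither of them called. TNFRSF12A, the receptor of TWEAK, went from 41.4, 56.7, 45.5 and 431 to 1673, 82.5, 2052 and 2672, nearly level in MM.1s and far higher in the other lines (mean 3.07 ± 0.60, SD 2.06, adjusted p = 0.0013).

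A pair of growth arrest genes rose in each line. CDKN1A, the cyclin-dependent kinase inhibitor p21, had signals of 610.3, 1065, 89.3 and 355 before and 2517, 4018, 1044 and 1733 after DAR. The groups overlapped by 1 array, treated KMS11 being just below untreated MM.1s, and the change was 2.31 ± 0.38 (adjusted p = 0.000215). GADD45A rose by 2.22 ± 0.28, without overlap. They were 2 of 3 called members among 20 p53 targets and GADD45 genes (15% higher and 0% lower, against 6.18% and 5.65% of all genes). The list median was 0.712 in MM.1s but between -0.001 and 0.113 in the other lines. Without U266 5 were called. Of 12 tested pro-death BCL2 relatives PMAIP1, which encodes NOXA and neutralises MCL1, rose by 1.58 ± 0.31 (adjusted p = 0.00121) from 4775, 1066, 2829 and 2647 to 8588, 3909, 8943 and 10436, higher in each line with overlapping groups. BCL2L13 was called at 0.45, 1 of its 5 probe sets being at -0.12, and 1 gene of this list was called without U266, MM.1s or KMS11. BMF was lower in U266 and 8226/S (-0.81 and -1.60) and higher in MM.1s and KMS11 (0.56 and 0.66), at -0.30 ± 0.28 (adjusted p = 0.564). Among pro-survival genes BCL2 was called at 0.41 ± 0.12 but not without MM.1s, KMS11 or 8226/S, and MCL1 was at 0.235 ± 0.17 (adjusted p = 0.427). The 6 MCL1 probe sets bright enough to test ran from 0.235 to 1.315, so the one read here had the smallest rise.

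The falls were smaller, and of the 32 lists MYC and ribosome biogenesis held the most, 8. NOLC1, a nucleolar scaffold for snoRNP assembly, had signals of 9418, 11417, 13488 and 10462 in control 1 and 5523, 3646, 5548 and 3794 after DAR. All treated arrays were below all controls, and the change was -1.285 ± 0.165, 2.44-fold lower (adjusted p = 1.51e-05). WDR36, a part of the small-subunit processome, went from 847, 1688, 1414 and 1654 to 362, 459, 432 and 604. These groups were apart as well, at -1.51 ± 0.17, 2.84-fold lower (adjusted p = 3.33e-06).

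Of 25 tested genes of MYC and ribosome biogenesis 8 were called lower (32%) and 0 higher, against 5.65% and 6.18% of all genes. The list median was -0.53. LYAR fell by 1.10, PES1 by 1.055 (a second probe set gave 0.39), UTP20 by 0.95, and the nucleolar protein NCL by 0.65. The line medians were 0.03, -1.02, -0.88 and -0.62, U266 having the one nearest 0, and 16 members were called lower when it was left out; with both controls pooled 5 were. MYC itself had signals of 302, 20811, 13016 and 22854 before and 679, 14799.7, 4221 and 23409.5 after DAR. It was low in U266 in both states, lower after DAR in MM.1s and KMS11 and about level in 8226/S, and its mean of -0.24 ± 0.36 was not called (adjusted p = 0.734).

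The 15 largest falls included genes of several kinds. GEMIN5, of the SMN complex that loads snRNAs, went from 993, 1751, 1520.4 and 2646 to 659, 477, 374 and 851, without overlap, at -1.48 ± 0.23 (adjusted p = 0.000153). The pseudouridine synthase PUS7 (-1.48 ± 0.21), the helicase DDX10 (-1.40 ± 0.17) and the TFIID subunit TAF5 (-1.39 ± 0.16) fell to a like degree. DDX5, an RNA helicase read here by 1 probe set, fell by 1.44 and INAFM2 by 1.38. PER2 and CRY2, repressors of the circadian clock, fell by 1.496 and 1.43, and the uracil glycosylase UNG by 1.40. The largest called fall, HPDL at -1.66 ± 0.43 (adjusted p = 0.0107), rested on KMS11, where it was -3.46; without KMS11 neither HPDL nor CRY2 was called, and without MM.1s CRY2 was not.

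Of 25 tested plasma cell genes 2 were called lower (8%) and 1 higher (4%). These shares are near those over all genes, 5.65% and 6.18%. IRF4 signals of 6190.5, 8858, 6189 and 3613 became 2787, 3811, 3037 and 1839. The groups overlapped by the low control of 8226/S, but the lines changed almost equally, by -1.08 ± 0.16 (SD 0.11), 2.12-fold lower (adjusted p = 8.71e-05). PRDM1, the repressor BLIMP1, was called lower at -0.63 ± 0.13, its probe sets differing in sign (-0.63 to 0.20); neither gene was called when all probe sets were averaged. SLAMF7, a surface antigen of myeloma, was the 1 called higher, by 1.72 ± 0.26. PIM2, a survival kinase of myeloma cells, went from 6670.5, 5645, 6728 and 2780.2 to 1360.4, 2399, 3509 and 1095, lower in each line with overlap through 8226/S (-1.44 ± 0.24, adjusted p = 0.00023).

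Counts in the cell cycle and lipid lists were small. The shares called lower were 10.5% for G1/S, 3.12% for G2/M, 11.1% for cholesterol and 10% for fatty acid genes, against 5.65% of all genes. The shares called higher were 2.63%, 0%, 0% and 20%, against 6.18%. Of 38 G1/S genes 4 were called lower and 1 higher, with 2 lower without KMS11 and 7 lower on centred arrays. Of 32 G2/M genes 1 was called lower, KIF11 at -0.68 and not without U266 or 8226/S, with 2 called without KMS11 and 3 on centred arrays, although all 32 had a mean change below 0 (median -0.27; line medians -0.33, -0.46, 0.05 and -0.57). Cholesterol synthesis had 2 of 18 called lower, NSDHL (-0.95 ± 0.22) and IDI1 (-0.83 ± 0.21, with probe sets from -0.83 to 0.24), and 0 when U266 was left out. In fatty acid metabolism ACLY fell by 0.46, a call lost without MM.1s or 8226/S, and LPIN1 rose by 0.70. PML, the protein that arsenic is best known to modify, was represented by a list of PML body and SUMO genes, of which TDG, ATRX and PIAS4 (whose other probe set gave 0.16) were called lower among 15, and 0 without KMS11. Of 30 genes of glycolysis and hypoxia 3 were called higher, VEGFA, NDRG1 and HK1, and HK2 lower, the last not without MM.1s, KMS11 or 8226/S.

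**Figure D3:**
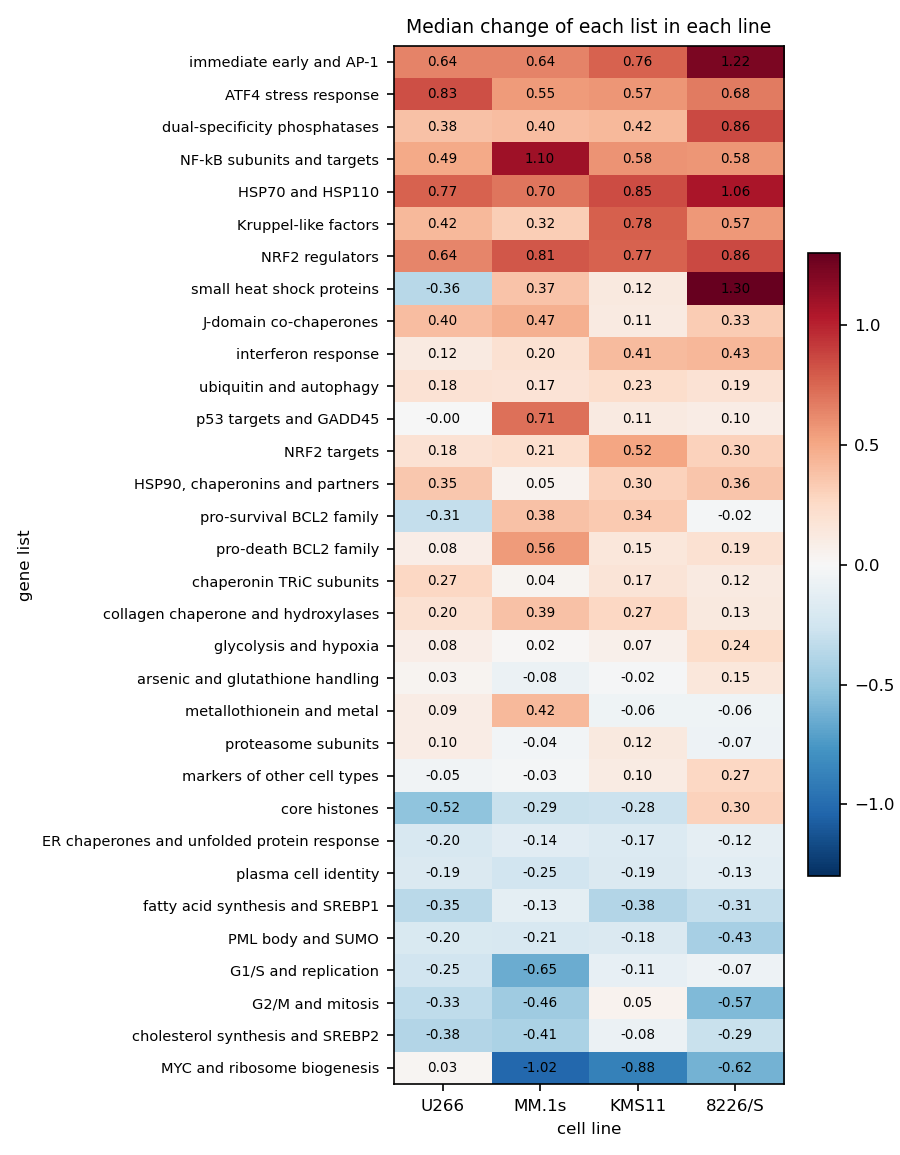
Median log2 change of each of 32 gene lists in each cell line after 6 h of DAR, coloured from blue (lower) to red (higher). The HSP70 and HSP110 row is above 0.69 in all 4 lines, and the MYC and ribosome biogenesis row is 0.03 in U266 while MM.1s, KMS11 and 8226/S lie at -1.02, -0.88 and -0.62.

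A call requires the same sign in all 4 lines, so called genes share their direction by definition. Over all tested genes the change in a line correlated with the mean of the other 3 lines at 0.266, 0.419, 0.454 and 0.339, a description across genes, which are not independent replicates. The median change of genes called higher was 0.65 in U266, 0.90 in MM.1s, 0.85 in KMS11 and 0.76 in 8226/S, and that of genes called lower was -0.46, -0.68, -0.61 and -0.62. U266, at the highest dose, thus had the smallest medians, which is a description of single arrays. Genes over 1 log2 unit higher numbered 928, 1164, 1187 and 1708; the 8226/S array, with the most, was also the one of high median signal. For each line, the 3 genes whose change was farthest from the nearest other line are given as values of 1 array. In 8226/S the chemokine CXCL8 went from 378 to 20504 and CHI3L1 from 206 to 9065, and CXCL8 was at or below 54.1 after DAR in the other lines; the receptor gene OR13C4 changed by 2.55 in 8226/S and by -2.003 to -0.895 elsewhere. In MM.1s the retinal reductase DHRS3 went from 22.5 to 875, OXTR, the oxytocin receptor, from 164 to 1619.6, and PARVG changed by 3.43. The GTPase RND1 changed by -0.69 in KMS11 but by 1.92 to 2.97 elsewhere, and the KMS11 changes of ADAT2 and TMEM72-AS1 were -2.78 and -1.77. MTA2, WWTR1 and SIRPA were lower only in U266, by changes of -2.42, -0.99 and -1.67. Signals of OR13C4, MTA2 and TMEM72-AS1 were low in both groups, at 6 to 184, 10.7 to 188 and 14.2 to 123, so their changes are those of dim genes.

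DAR at 24 h and at 6 h share their array set, so the difference between them was tested directly. The same 6 h arrays enter this difference and the change from control 1, and no overlap between them is read. In all 570 genes were called higher at 24 h than at 6 h (3.69%) and 521 lower (3.37%). HSPA6 signals were 197, 1543, 411 and 2614 at 24 h, below the 6 h values in each line and above the control of each line, a difference from 6 h of -3.00 ± 0.565 (adjusted p = 0.00159). SERPINH1 returned to 214, 7.6, 163 and 725, near control in 3 lines, the difference being -3.50 ± 0.42 (adjusted p = 2.08e-05). JUN, at 2073, 2332, 952 and 5261, and ATF3, at 952, 1001, 341 and 2472, were lower than at 6 h by differences of -2.34 ± 0.31 and -2.64 ± 0.44; in both genes 8226/S kept the highest level.

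Members of the chaperone and early stress lists were called lower at the later time. Lower at 24 h than at 6 h were 5 of 10 HSP70 and HSP110 genes, 5 of 14 J-domain genes and 11 of 23 HSP90 partners, with 1 of the last higher. So were 4 of 13 collagen-folding genes, 10 of 24 immediate early genes and 13 of 41 ATF4 genes. Without MM.1s or KMS11 6 immediate early genes were called, and the ATF4 count was 7 to 9 without any 1 line. HMOX1 was lower by 2.58 on the log2 scale, a difference of -2.58 ± 0.415. TRAF1, in contrast, had a difference of -1.10 ± 0.345 that was not called (adjusted p = 0.0516).

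Genes higher at 24 h than at 6 h were of other kinds. XAF1 was at 102, 138, 9.8 and 25.1 at 6 h and at 744, 439, 243 and 1908 at 24 h, higher in each line by a mean of 2.99 ± 0.44 (adjusted p = 0.000168). MX1, an antiviral GTPase, went from 1183, 65.0, 500.1 and 134 to 5778, 115, 1429 and 6068, a difference of 2.39 ± 0.50 (adjusted p = 0.00409) that was not called without 8226/S. IFIT1 and IFIT3 differed by 2.55 and 1.88, and DPYSL3, a cytoskeletal regulator, by 1.83. IFIT1 was not called without KMS11 or 8226/S, nor IFIT3 without MM.1s. Of 25 interferon genes 9 were higher and 2 lower; without KMS11 6 were higher, and without 8226/S 5. Among G2/M genes 14 of 32 were higher at 24 h, CCNB1 by 1.07 and CENPE by 1.04, but 4 without U266 and 3 without 8226/S. NOLC1 was higher at 24 h than at 6 h by 0.83 ± 0.165 and IRF4 by 0.76 ± 0.16. Over all genes, leaving out MM.1s gave 314 higher and 280 lower, leaving out KMS11 296 and 284, and leaving out 8226/S 344 and 402.

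**Figure D4:**
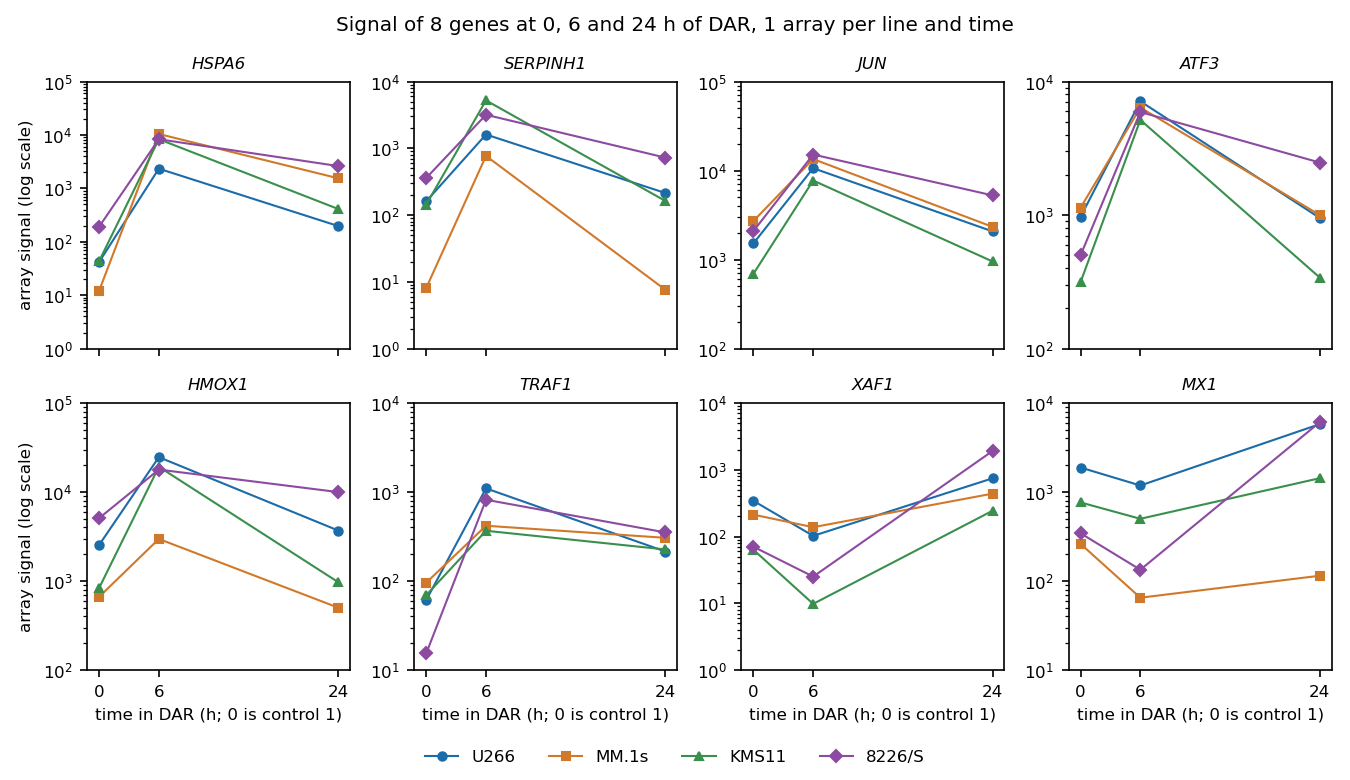
Array signal (log scale) of 8 genes at 0 h (control 1), 6 h and 24 h of DAR, 1 line per cell line with 1 array per point. HSPA6, SERPINH1, JUN, ATF3 and HMOX1 peak at 6 h in each line, whereas XAF1 is highest at 24 h in each line and MX1 is higher at 24 h than at 6 h.

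The comparison with ATO asks which early changes differ between an organic and an inorganic arsenical. Each agent was set against the control of its own array set, and the difference between the changes was tested; ATO was at 2 µM throughout, so doses match only in 8226/S, and agent and array set cannot be told apart. In all 151 genes had a higher change after DAR (0.978%) and 183 a lower one (1.19%). These counts are sensitive to single lines: without U266 they were 66 and 99, without MM.1s 31 and 29, without KMS11 59 and 52, and without 8226/S 78 and 71.

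Metallothioneins differed most. MT2A went from 571, 545, 416 and 3397 in control 2 to 32721, 37641, 28111 and 29389 after 6 h of ATO, a range in which no DAR array lay. The change after DAR minus that after ATO was -4.96 ± 0.53 (95% interval -6.06 to -3.855; adjusted p = 1.33e-05). For MT1H it was -7.15 ± 0.71, for MT1X -6.53 ± 0.84 and for the related copy MT1HL1 -5.37. Of 10 tested metallothionein and metal genes 7 had a lower change after DAR, also without any 1 line, and the zinc exporter SLC30A1 was one of them, at -2.23. LINC00304, a non-coding RNA, differed by -5.78.

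JUN, FOS and collagen-folding genes differed in the other direction. FOS went from 1996, 820.1, 135 and 424 in control 2 to 55.8, 32.7, 43.5 and 63.6 after ATO. In control 1 FOS was at 15.3, 11.9, 32.2 and 142, so its untreated level also differed between the array sets. Its mean change was -2.94 after ATO and 1.29 after DAR, a difference of 4.24 ± 0.67 (adjusted p = 0.00115). TRAF1 differed by 3.25 ± 0.49 (adjusted p = 0.000876), JUN by 2.55 ± 0.44 (adjusted p = 0.00244) and P4HA2 by 2.36 ± 0.38 (adjusted p = 0.00132). The JUN difference was not called without U266. SERPINH1, at 2.23 ± 0.60 (adjusted p = 0.0494), was not called when any 1 line was left out, and neither rescaling kept it. Of the collagen list 4 of 13 were called higher for DAR. Of these 1 was called without U266, MM.1s or KMS11 and 3 without 8226/S. On centred arrays 2 were called and on quantile-normalized arrays 1. The 4 included PLOD1 and P4HA1, whose untreated levels also differed between the array sets. PLOD1 was at 1333, 801, 504 and 1328 in control 1 and at 2377, 2914, 1750 and 1950 in control 2. P4HA1 was at 1642, 1041, 630 and 1056 in control 1 and at 4108, 8309, 4959 and 1568 in control 2. NRF2 targets gave 3 of 27 lower for DAR, SRXN1 (-1.37), NQO1 (-1.45) and GSR (-1.19), and 0 without MM.1s or without KMS11.

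Called differences between the agents in the chaperone lists were single genes. The change after DAR was higher for 1 and lower for 1 of 10 HSP70 and HSP110 genes (10% each). It was higher for 1 and lower for 1 of 23 HSP90 partners (4.35% each), and lower for 1 of 14 J-domain genes (7.14%). Over all genes 0.978% were higher and 1.19% lower. Of the HSP70 and HSP110 list HSPA4L had a higher change after DAR (1.09, adjusted p = 0.0335; not called on either rescaling, nor without MM.1s, KMS11 or 8226/S) and HSPA9 a lower one (-0.63, not called on centred arrays, nor without MM.1s, KMS11 or 8226/S). Of the HSP90 list AHSA2P was higher (1.44, not called without MM.1s or 8226/S) and FKBP5 lower (-1.19), and of the J-domain list DNAJC2 was lower, a call lost without MM.1s or KMS11. No difference was called for the following members, whose intervals bound it. The difference was 0.12 for HSPH1 (95% interval -0.27 to 0.52), -0.12 for DNAJB1 (-0.66 to 0.43) and 0.41 for BAG3 (-0.26 to 1.08). HSPA6 had 2.38 (0.73 to 4.03, adjusted p = 0.123) and HMOX1 -1.63 (-2.85 to -0.42, adjusted p = 0.156), neither called. IRF4 changed by -1.08 after DAR and by -1.08 after ATO, with an interval of the difference from -0.48 to 0.47. At the matched dose in 8226/S, with 1 array per state and so no test, the changes after DAR and ATO were 5.24 and 3.09 for HSPA6, 2.28 and 2.03 for BAG3, 2.84 and 0.00 for JUN, 2.93 and 1.425 for P4HA2, 1.81 and 3.15 for HMOX1, and -0.34 and 3.10 for MT2A.

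**Figure D5:**
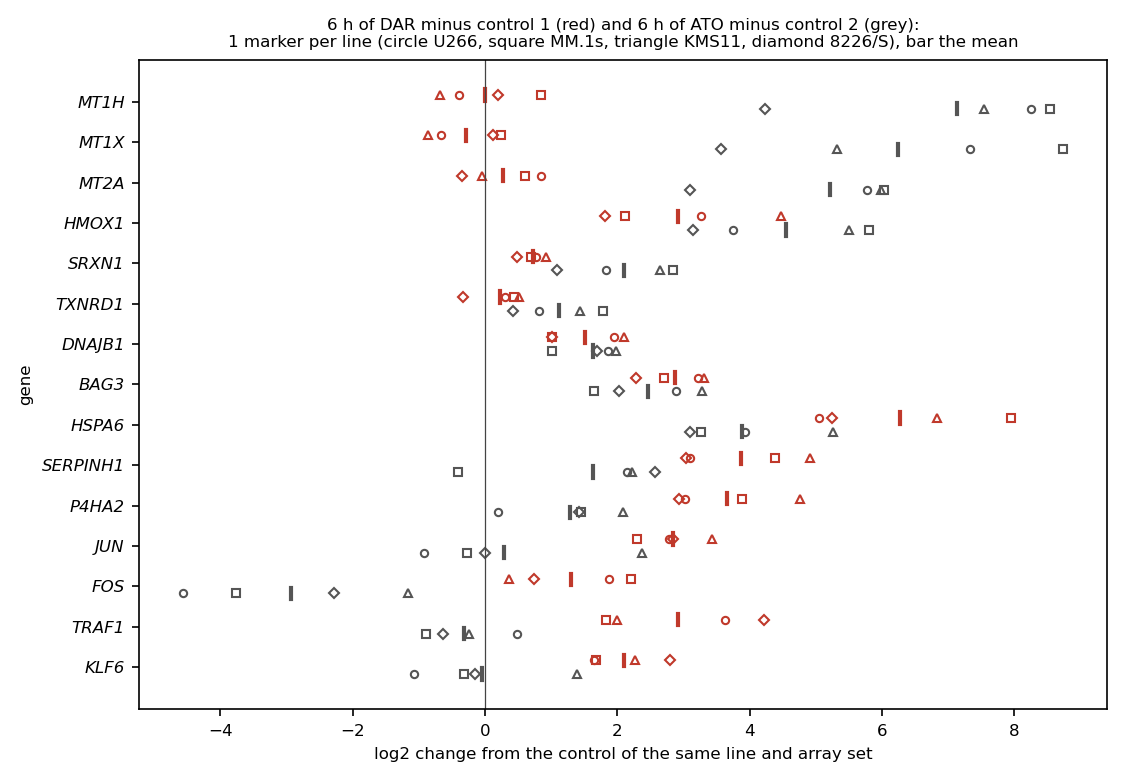
Log2 change of 15 genes in each of 4 cell lines after 6 h of DAR against control 1 (red) and after 6 h of ATO against control 2 (grey). In each line the change is lower after DAR for MT2A and higher after DAR for JUN and P4HA2, whereas the ranges of the agents overlap for DNAJB1 and BAG3.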

How the data were processed

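Total RNA of 4 myeloma lines was labelled as biotinylated cRNA and hybridised to 28 arrays. The deposited intensity values were made with GCOS (version not given in the sources used here), per the submitters' processing notes. Each array has a trimmed mean near 500. No detection calls were used. Here 30 was added to the authors' deposited intensity and log2 was taken, with no further scaling. Of 54675 probe sets, 41097 carry 1 gene symbol, 1801 several and 11777 none; 62 are array controls. Symbols were updated for 41037 through the RefSeq gene table. The brightest probe set stood for each gene (19775 genes), and the 15438 above their array's median on at least 4 arrays were tested.

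One limma 3.58.1 model (R 4.3.3) held all 28 arrays, a baseline for each line in each array set and the 5 treatments, with eBayes, a variance trend and Benjamini-Hochberg adjustment; all p-values come from it. Tables and plots were made in Python 3.11.15 with pandas 2.3.3 and matplotlib 3.10.9. On simulated data for DAR at 6 h against control 1 (15438 genes, 50 changed per size) the same code called 22% of changes of 0.5 log2, 72% of 1, 98% of 2 and 100% of 4. The number of arrays, 1 per line and state, limits the precision.

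Genes were taken for naming from the 15 largest rises and 15 largest falls, up to 4 called members of each list by p (the 2 of smallest p where none was called), 17 genes of the arsenic response, the 3 most line-specific genes per line, and the 5 largest differences per direction in the other comparisons; not all are described, and other list members are named as examples. The members and the 32 gene lists were chosen with earlier results of these data known. Arrays are paired by cell line: deviations from group means correlated at 0.746 to 0.81 within a line and at -0.352 to -0.059 between lines, where subtraction of the mean pushes values below 0. Alternatives changed the scaling, offset, filter, probe set rule, arrays fitted, baseline, line term and variance model, and left out each line. Of list members 91 were too dim or had no probe set of their own and were not analysed here. Promoters came from RefSeq (GRCh38.p14), with an entry for 119 of 140 named genes.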

Additional observations from a re-analysis of the deposited data

Results flagged for a closer look

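Of 74 groups of 4 lines, 7 had a line outlying from the other 3; chance marks about 1 group in 20. The 8226/S array of DAR at 6 h had a median signal of 108.7 against 76.3 to 78.0 in the other lines. In list medians, the dual-specificity phosphatases stood at 0.858 in 8226/S against 0.377 to 0.417 elsewhere, and the PML body and SUMO genes at -0.427 against -0.212 to -0.183. MM.1s was outlying in the NF-kB list, at 1.105 against 0.49 to 0.585, and in the p53 list, at 0.712 against -0.001 to 0.113. PXN-AS1, an antisense RNA, changed by -2.338 in 8226/S and by -1.174 to -1.012 elsewhere, and TAF5 by -0.774 in U266 and by -1.644 to -1.527 elsewhere.

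For 12 genes, taken for the size of the difference or as genes of the arsenic response, the difference between the agents at 6 h passed its own test. The change after DAR exceeded that after ATO by 4.236 for FOS, 3.513 for MIR210HG, 3.246 for TRAF1, 2.651 for RFPL2, 2.547 for JUN, 2.361 for P4HA2 and 2.231 for SERPINH1. It was lower by differences of -7.147 for MT1H, -6.53 for MT1X, -5.782 for LINC00304, -5.367 for MT1HL1 and -4.956 for MT2A. MIR210HG was not called without U266, MM.1s or KMS11, and RFPL2 not without MM.1s, KMS11 or 8226/S. Untreated MIR210HG was at 433, 2040, 699 and 31.8 in control 2 but at 27, 81.8, 22.7 and 12.7 in control 1. Its treated signals overlapped, at 5.2, 78.6, 109 and 114 after DAR and 11.5, 84.9, 23.8 and 22.5 after ATO. The part of the untreated levels in the differences of MIR210HG, FOS, PLOD1 and P4HA1 was not tested.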

How the results depend on the processing

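With each array centred on its median, 614 genes were called higher after 6 h of DAR in place of 954. That centring moved the median change of all genes from 0.02 to -0.072, and quantile normalization to -0.014. Leaving out each line in turn gave 589 to 953 higher and 483 to 867 lower. The cell lines pair the arrays, and with no line block 1 gene was called higher and 0 lower. The other alternatives gave counts within 1.5 times of the main ones. For 24 h against 6 h, centring gave 371 higher, the arrays of the comparison alone 217 higher and 272 lower, and leaving out lines 296 to 495 higher and 280 to 460 lower. For the difference between DAR and ATO, centring gave 70 higher and 95 lower, quantile normalization 97 higher, the arrays of the comparison alone 57 and 63, and leaving out lines 31 to 78 higher and 29 to 99 lower. The cause of these moves was not tested, beyond the smaller number of arrays. Averaging all probe sets of a gene turned PSMD12 to -0.37, and pooling both controls turned CD34 to -0.01. Of 109 named genes called after 6 h of DAR, 100 were called on centred arrays, 88 with averaged probe sets, 85 with pooled controls and 89 to 98 without 1 line. Of the 30 largest changes CRY2 lost its call without MM.1s, without KMS11 and with pooled controls, and was not tested with 8 arrays required above the median; HPDL lost it without KMS11 and PXN-AS1 with pooled controls. Dim signals near the offset limit the fold changes of low genes.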

Other observations

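Some of the largest changes after 6 h of DAR lay outside the pathways described above. RFPL2, a RING finger gene, had signals of 77.8, 81.6, 66.9 and 32.2 in control 1 and 232, 3840.5, 2138 and 413 after DAR. All treated arrays were higher than all controls, with a change of 3.43 ± 0.49 that ran from 1.28 in U266 to 5.12 in MM.1s. FAM131B-AS2, an antisense RNA whose probe strand was not examined, went from 418, 176, 110.2 and 94.7 to 1981, 1314, 2500.5 and 1592, also without overlap (3.19 ± 0.30). Among the falls, the non-coding RNA DLEU1 went from 1324, 1879, 2569 and 2727 to 761, 519.9, 942 and 731, without overlap (-1.46 ± 0.175). AKAP1, an anchor of protein kinase A on mitochondria, fell by 1.44, the change being -2.07 in MM.1s and -0.81 in U266.

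HSPE1 and HSPD1, the paired subunits of the mitochondrial chaperonin, were called higher at 0.66 ± 0.14 and 0.40 ± 0.10, whereas HSPA9 of the same compartment was not called. TFEB, which drives lysosome genes, rose by 1.115 ± 0.17, higher in each line (0.76 to 1.51). Of 7036 tested probe sets without a single gene symbol, 227 were called higher and 237 lower.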
